A study of Mus musculus with 6 samples.

Results

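The genes described here are Myc, the transcription factor, and 37 genes of ribosome biogenesis, as measured by RNA sequencing of stimulated regulatory T cells from wild-type mice and from mice labelled as T cell knockouts of the splicing factor Srsf1. The members were a fixed list of 38 symbols of the gene count table. The rule used no measured value, but the list was chosen with earlier results of these data known. They are written there in capitals, as MYC, NCL, NPM1, FBL and so on, and here as mouse symbols. All 38 were among the 24982 symbols of that table, and all 38 passed the filter on low counts that left 11772 genes to test. No member differed between the genotypes beyond the spread of the replicates. The members' values did show a pair of libraries that stood apart, 1 in each group. In the library labelled WT replicate 3, 36 of 38 members were below both other WT libraries, against 39.8% of all genes tested. In KO replicate 1 the members were spread by base composition, and so were all genes tested. There 12 of 38 members and 30.5% of all genes were more than 2-fold from the other KO libraries.

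Natural regulatory T cells (nTreg cells), sorted as CD4+CD25+CD127lo cells from spleens of B6.129 mice aged 8 to 10 weeks, were stimulated for 72 h. The stimulus was the same in both groups, with anti-CD3 at 2 µg/ml, anti-CD28 at 2 µg/ml and recombinant interleukin-2 at 10 ng/ml. The KO group carried floxed Srsf1 alleles and a Cre recombinase under the distal Lck promoter, which acts in T cells, and the WT group was labelled only as wild type. Each group had 3 libraries, from 3 mice per genotype. The source field of the labels names effector CD4 T cells, whereas the titles and the sorting protocol name nTreg cells, and Foxp3, which defines regulatory T cells, was read in every library, at 104 to 160 CPM in WT and 357 to 464 CPM in KO. CPM are counts relative to library size, with the libraries scaled to each other by the TMM method. Total gene counts were 23263741 to 27562046 in WT and 10183626 to 20373649 in KO, and single members had between 144 and 178509 counts in a library, so depth did not keep any of them from being measured.

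Ribosomes are built in the nucleolus. RNA polymerase I transcribes the precursor of the large ribosomal RNAs, small nucleolar ribonucleoproteins (snoRNPs) guide its chemical modification, and a large set of assembly factors folds and cuts it into the small and the large subunit. Myc binds DNA as a dimer with Max, with the hexamer CACGTG, called an E-box, as its best known site, and it raises transcription of many of these genes when lymphocytes start to grow and divide.

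That hexamer was looked up in the promoters of the members. RefSeq promoter windows of build GRCm38.p6, running from 250 bases before to 50 bases after a start site, were found for 31 of the 38 members. CACGTG, which reads the same on both strands, was present in windows of 9 members, or 29.0%. Those were Nop2, Mybbp1a, Nle1, Wdr43, Pes1, Utp20, Imp4, Ltv1 and Tsr1. The share was 12.0% among the 9339 tested genes with a window and 8.09% among all 27025 genes with one. The 4 windows below are from the members with a match and the smallest p in the genotype comparison, and they show how the hexamer lies relative to the start site. Each is written 5′ to 3′ on the strand of the gene, with the match in capitals.

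Imp4 (chr1:34439579-34439878, plus strand): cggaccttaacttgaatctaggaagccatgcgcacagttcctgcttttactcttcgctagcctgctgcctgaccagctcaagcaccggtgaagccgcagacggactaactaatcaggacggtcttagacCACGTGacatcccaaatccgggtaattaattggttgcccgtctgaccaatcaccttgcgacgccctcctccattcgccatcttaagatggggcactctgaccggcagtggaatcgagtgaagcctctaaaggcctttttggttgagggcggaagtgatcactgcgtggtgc

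Nle1 (chr11:82908346-82908645, minus strand): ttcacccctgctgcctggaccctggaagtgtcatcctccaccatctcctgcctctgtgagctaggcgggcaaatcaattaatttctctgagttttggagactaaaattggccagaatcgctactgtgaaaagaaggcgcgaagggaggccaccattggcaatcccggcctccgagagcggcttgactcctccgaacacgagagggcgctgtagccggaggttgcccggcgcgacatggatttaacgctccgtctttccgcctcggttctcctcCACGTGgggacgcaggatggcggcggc

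Mybbp1a (chr11:72441077-72441376, plus strand): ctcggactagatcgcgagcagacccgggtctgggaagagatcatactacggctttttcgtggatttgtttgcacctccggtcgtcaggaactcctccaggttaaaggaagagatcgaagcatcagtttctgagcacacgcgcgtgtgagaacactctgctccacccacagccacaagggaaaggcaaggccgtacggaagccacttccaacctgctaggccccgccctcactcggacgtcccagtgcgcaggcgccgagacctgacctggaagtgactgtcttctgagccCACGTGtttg

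Nop2 (chr6:125131633-125131932, plus strand): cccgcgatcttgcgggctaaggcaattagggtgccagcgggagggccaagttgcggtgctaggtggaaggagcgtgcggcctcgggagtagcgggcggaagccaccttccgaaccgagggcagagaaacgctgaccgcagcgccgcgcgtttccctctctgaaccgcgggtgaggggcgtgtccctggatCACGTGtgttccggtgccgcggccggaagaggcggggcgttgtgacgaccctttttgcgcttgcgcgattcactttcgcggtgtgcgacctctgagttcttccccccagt

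The match begins at base 130 of the 300-base window in Imp4 and at base 191 in Nop2, before the start site, and at base 274 in Nle1 and base 291 in Mybbp1a, after it. The related letters CACGCG, or CGCGTG on the other strand, were in windows of 8 members (25.8%), against 20.7% of the tested genes with a window. Other genes of the pathway, the set most like the members, had CACGTG in 20.7% and these letters in 35.3% of 116 genes with a window. Either motif was in windows of 48.4% of the members and 50.9% of those genes. A window with both forms counted once, and Mybbp1a and Pes1 had these letters as well as CACGTG. A match describes letters in the window and not a bound site, and the gene counts themselves came from another build, mm9.

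Srsf1, the targeted gene, bears on the labels. It stood at 1214, 1230 and 755.5 CPM in WT replicates 1 and 2 and the library labelled WT replicate 3, in that order, and in the KO libraries, in the same order, at 438, 812 and 787 CPM. The value labelled WT replicate 3 was thus below 2 of the KO values. In edgeR's quasi-likelihood test the log2 fold change of Srsf1 was -0.65, its SE 0.32 and its adjusted p 0.682. Counts over a whole gene include exons outside a deleted part, so these values do not assign a genotype, and the directions given here follow the labels.

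Across the members, edgeR's quasi-likelihood test with Benjamini-Hochberg adjustment over all 11772 genes called 0 of 38, where it called 2 genes in all (0.0170%). At an unadjusted p under 0.05 there were again 0 of 38 members, against 7.51% of all genes tested. DESeq2's Wald test and limma voom gave 0 of 38 by either threshold as well. The groups overlapped in every member, while 15.7% of all genes had groups that did not overlap. Of the 38 log2 fold changes 19 were above 0 and 19 below, from -0.40 in Gnl3 to +0.56 in Bop1, with a median of 0.00 where the median of all genes was 0.02. The median size without regard to sign was 0.19, against 0.30 for all genes.

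**Figure D1:**
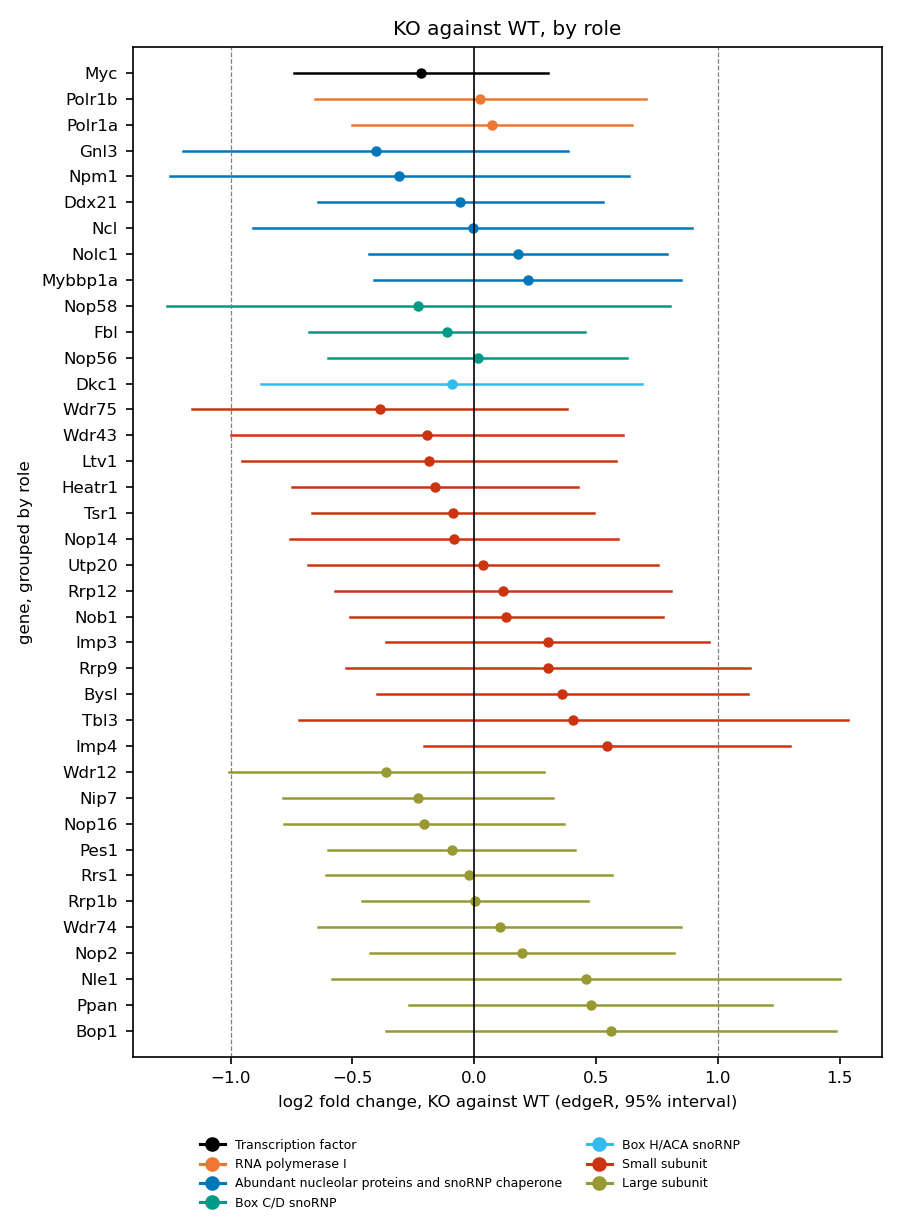
Log2 fold change in KO against WT (horizontal axis) of each of the 38 members, grouped by role, from edgeR with 3 libraries per group; lines are 95% intervals. All 38 intervals include 0, and the points run from -0.40 to 0.56.

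The intervals state what differences these libraries leave possible. For 26 of the 38 members (68.4%) the 95% interval lay inside a 2-fold change either way, which held for 41.0% of all genes tested. The bounds reached -1.26 for Nop58 and +1.53 for Tbl3, so that larger changes were not excluded for those members at this replicate number. A p that misses the threshold does not show that the levels were equal.

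Myc itself was read at 380, 310 and 395 CPM in WT cells and at 358, 278 and 295 CPM in KO cells. The highest KO library lay between the WT libraries, and the KO mean was the lower one, at 311 ± 42.5 CPM against 362 ± 45.4 CPM (mean ± SD, n = 3 each). The log2 fold change was -0.22 (SE 0.23, 95% interval -0.74 to 0.30), with an edgeR adjusted p of 0.802. The p of an exact two-sided permutation test over the libraries was 0.2, and 0.1 is the smallest that groups of 3 can give. With a correction for GC content and length the value was -0.42, over 1.5 times as large, and it did not pass there either (edgeR adjusted p = 0.468).

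RNA polymerase I was represented by the catalytic subunits Polr1a and Polr1b, which together form the core of the enzyme. Polr1a stood at 214, 237 and 146 CPM in WT cells and 233, 209.5 and 186 CPM in KO cells, a log2 fold change of +0.07 (SE 0.25, edgeR adjusted p = 0.930). Polr1b stood at 101, 134 and 70.5 CPM in WT cells and 130, 100.7 and 80.5 CPM in KO cells, a log2 fold change of +0.03 (SE 0.30, edgeR adjusted p = 0.981). In both genes the library labelled WT replicate 3 was the lowest of the 6, and the KO libraries lay inside the range of the WT libraries.

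The box C/D snoRNP holds the methyltransferase Fbl, with Nop56 and Nop58 as its scaffold. Fbl was read at 117, 154 and 100.2 CPM in WT cells and 136, 103 and 105 CPM in KO cells, a log2 fold change of -0.11 (SE 0.25, edgeR adjusted p = 0.895). A pseudogene named Fbl-ps2 exists, and whether reads were split between the copies is not known from the sources used here. The Fbl level is uncertain to that extent. Nop58 stood at 912, 705 and 434 CPM in WT cells and at 240, 748 and 762 CPM in KO cells, with a log2 fold change of -0.23 (SE 0.45, edgeR adjusted p = 0.887). KO replicate 1 was the lowest library and the library labelled WT replicate 3 the next lowest, while the other 4 lay between 705 and 912 CPM. Nop56 stood at 510, 426 and 284 CPM in WT cells and 379, 392 and 461 CPM in KO cells, with a log2 fold change of +0.01. Dkc1, the pseudouridine synthase of the box H/ACA snoRNP, stood at 460, 417 and 255 CPM in WT cells and 214, 436 and 412 CPM in KO cells, with a log2 fold change of -0.09.

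Among the abundant nucleolar proteins, Ncl (nucleolin, which binds ribosomal RNA and its chromatin) and Npm1 (nucleophosmin, a chaperone of the nucleolus) had the highest counts. Ncl stood at 8066, 5868 and 4610 CPM in WT cells and 2980, 7255 and 8238 CPM in KO cells. The group means were 6181 ± 1749 and 6158 ± 2796 CPM (mean ± SD, n = 3 each), a log2 fold change of -0.01 (SE 0.40, edgeR adjusted p = 0.995). Both the highest and the lowest value of Ncl were in KO libraries. Npm1 showed the same library as lowest, at 6434, 4764 and 4291 CPM in WT cells and 1780, 5182 and 5556 CPM in KO cells, with a log2 fold change of -0.31 (SE 0.41, edgeR adjusted p = 0.840). Without KO replicate 1 the values of Ncl and Npm1 were +0.32 and +0.06, and neither passed the test with or without it. Ncl, whose value was near 0, was also above 0 without WT replicate 1 (+0.23) and with the correction for GC content and length (+0.18).

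Gnl3 (nucleostemin, a nucleolar GTP-binding protein) stood at 287, 246 and 173 CPM in WT cells and at 99.98, 205 and 229 CPM in KO cells. Its log2 fold change of -0.40 (SE 0.35, edgeR adjusted p = 0.770) was the lowest of the 38, and it was -0.12 without KO replicate 1. The remaining members of this kind were Nolc1, a chaperone of snoRNPs, at +0.18, Mybbp1a, a nucleolar protein that binds Myb, at +0.22, and the RNA helicase Ddx21 at -0.06 on the log2 scale.

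**Figure D2:**
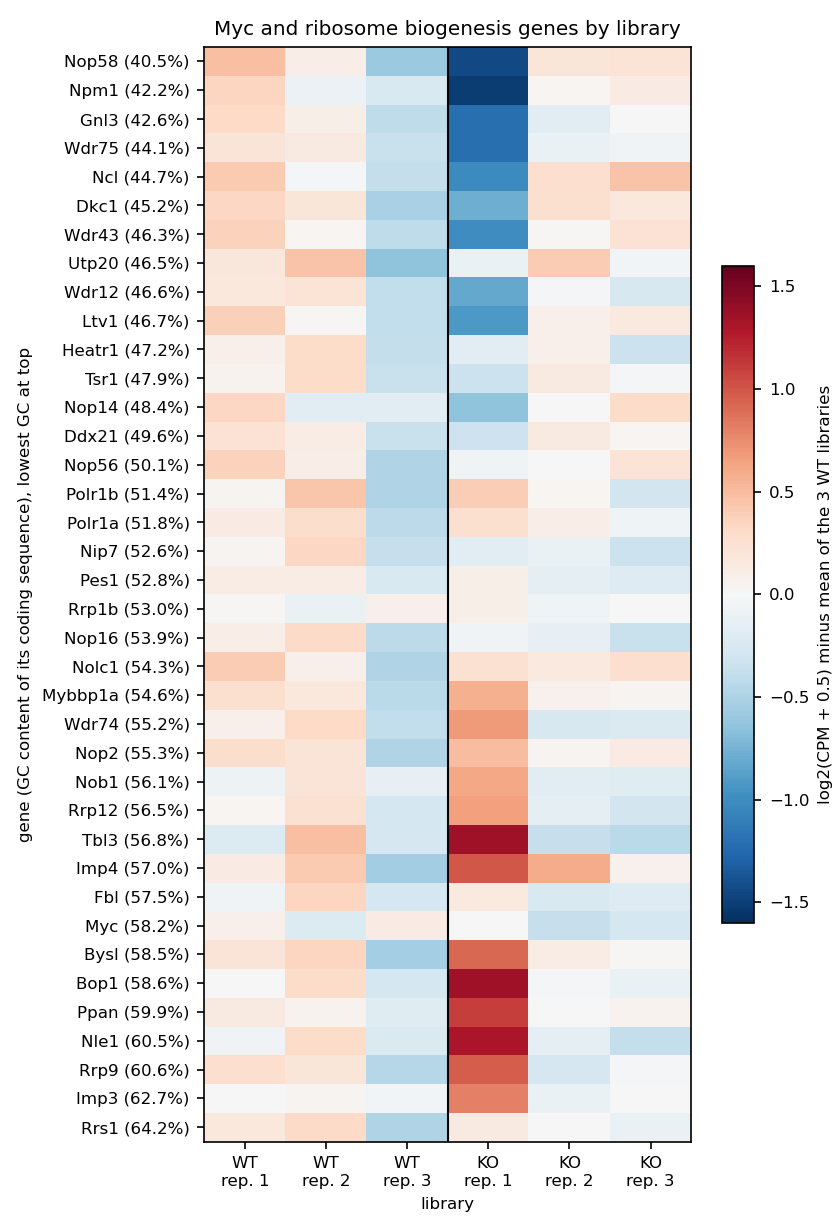
Level of each of the 38 members (rows, from the lowest to the highest coding GC content, given in percent beside the name) in each of the 6 libraries (columns), as colour on the scale of log2(CPM + 0.5) relative to the mean of the WT libraries. Most members are low in the library labelled WT replicate 3, and KO replicate 1 runs from low members at the top to high ones toward the bottom.

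Of the 14 small subunit factors 8 had log2 fold changes above 0 and 6 below, with a median of +0.08. Imp4, which joins the U3 snoRNA to the precursor RNA, had the smallest p of all members, at 71.8, 87.7 and 44.3 CPM in WT cells and 130, 98.6 and 68.4 CPM in KO cells. The log2 fold change was +0.54 (SE 0.33, 95% interval -0.21 to 1.30, edgeR adjusted p = 0.724), and it was +0.30 without KO replicate 1. The lowest KO library lay below 2 of the WT libraries. Imp3, its partner on the U3 snoRNA, was even in 5 libraries, at 36.6, 37.5 and 35.2 CPM in WT cells and 33.9 and 36.4 CPM in KO replicates 2 and 3. KO replicate 1 alone was apart, at 64.2 CPM, and the log2 fold change of +0.30 (SE 0.29, edgeR adjusted p = 0.787) became -0.05 without it.

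Bysl, a factor of small subunit maturation, stood at 74.2, 81.5 and 43.8 CPM in WT cells and 122, 69.6 and 65.0 CPM in KO cells, with a log2 fold change of +0.36 (SE 0.33, edgeR adjusted p = 0.778). It was +0.02 without KO replicate 1. Tbl3, a WD repeat protein of the small subunit processome, had the widest interval, at 36.6, 59.6 and 35.1 CPM in WT cells and 109, 32.9 and 31.3 CPM in KO cells, with a log2 fold change of +0.41 (SE 0.49, edgeR adjusted p = 0.823). KO replicate 1 held its highest value and the other KO libraries its lowest, and the value without KO replicate 1 was -0.45. In GENCODE M21, exons of Tbl3 share 2122 bases with Noxo1 on the other strand, exons of Tsr1 share 1240 bases with Srr, and exons of Bysl share 361 bases with Ccnd3. How the counting treated strand is not given in the sources used here. These 3 levels are therefore uncertain. Shorter overlaps of the same kind exist for Imp4 (209 bases), Polr1a (185), Heatr1 (155), Nop14 (144), Pes1 (138) and Mybbp1a (131).

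Wdr75, another WD repeat protein of the processome, stood on the other side, at 226, 218 and 154 CPM in WT cells and 84.7, 183 and 190 CPM in KO cells. Its log2 fold change was -0.39 (SE 0.34, edgeR adjusted p = 0.770), and -0.10 without KO replicate 1. Of the other small subunit factors, Rrp9, a protein of the U3 snoRNP, stood at +0.30, the endonuclease Nob1, which makes the last cut of the small subunit RNA, at +0.13, and the export factor Rrp12 at +0.12. Utp20 stood at +0.04, Nop14 at -0.08, Tsr1 at -0.09, Heatr1 at -0.16, Ltv1 at -0.18 and Wdr43 at -0.19 on the log2 scale.

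The 11 large subunit factors had 6 log2 fold changes above 0 and 5 below, with a median of 0.00. Bop1, Pes1 and Wdr12 form one complex that processes the precursor of the large subunit RNA, and their values did not lie together. Bop1 stood at 83.6, 102.5 and 68.8 CPM in WT cells and 215, 82.8 and 77.6 CPM in KO cells, with a log2 fold change of +0.56 (SE 0.41, edgeR adjusted p = 0.753). Wdr12 stood at 137, 143 and 92.8 CPM in WT cells and 68.7, 120 and 102 CPM in KO cells, with a log2 fold change of -0.36 (SE 0.28, edgeR adjusted p = 0.754). Pes1 lay between them at -0.09. KO replicate 1 held the highest Bop1 and the lowest Wdr12 value of all 6 libraries, and without it Bop1 was at -0.08 and Wdr12 at -0.17.

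Ppan and Nle1, which also act on the large subunit, showed the pattern of Bop1. Ppan stood at 64.1, 60.7 and 50.6 CPM in WT cells and 125, 58.3 and 60.6 CPM in KO cells, with a log2 fold change of +0.48 (SE 0.33, edgeR adjusted p = 0.746), or +0.02 without KO replicate 1. Nle1 stood at 18.2, 23.3 and 16.1 CPM in WT cells and 47.5, 17.0 and 14.4 CPM in KO cells, with a log2 fold change of +0.46 (SE 0.46, edgeR adjusted p = 0.793), or -0.29 without KO replicate 1. In both genes a single KO library lay above all others, and the other KO libraries lay within or below the range of the WT libraries.

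Nip7 and Nop16, further factors of the large subunit, had KO values close to each other. Nip7 stood at 108, 131 and 80.5 CPM in WT cells and 92.8, 97.3 and 82.1 CPM in KO cells (log2 fold change -0.23, SE 0.24, edgeR adjusted p = 0.802). Nop16 stood at 122, 140 and 83.8 CPM in WT cells and 108, 103 and 87.6 CPM in KO cells (log2 fold change -0.21, SE 0.25, edgeR adjusted p = 0.824). All 3 KO libraries lay below WT replicates 1 and 2 and above the library labelled WT replicate 3 in both genes. The methyltransferase Nop2 stood at +0.20, Wdr74 at +0.10 and Rrs1 at -0.02. Rrp1b, at a log2 fold change of 0.00, was read at 169, 155 and 176 CPM in WT cells and 177, 158 and 165 CPM in KO cells.

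The library labelled WT replicate 3 was below both other WT libraries in 36 of the 38 members, the exceptions being Myc and Rrp1b, where 39.8% of all genes tested were below both. With scaling by library size alone, or in the FPKM values, the count was 32 of 38. Its median distance from the other WT libraries over the members was -0.58 on the log2 scale. It was also the lowest of the 6 libraries in 21 members, and the members took 1.51% of its counts, against 2.27% and 1.90% in WT replicates 1 and 2. The same library was below both others in 105 of the 132 further pathway genes described below. Without it the median of the members in KO against WT was -0.19, with 27 of 38 below 0, and that of the further pathway genes was -0.20. The share below 0 and the median over all genes without this library are not given here.

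KO replicate 1 stood apart in another way. Its distance from the other KO libraries ran from -1.65 in Nop58 to +1.75 in Tbl3, and 12 of 38 members were more than 2-fold away, 5 above and 7 below. Of all genes tested, 30.5% were more than 2-fold away in this library. The members took 1.31% of its counts, against 2.06% and 2.14% in KO replicates 2 and 3. Ncl and Npm1 alone made up 0.511% there and 1.25% and 1.35% in the other KO libraries.

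Where a member lay in KO replicate 1 followed the GC content of its coding sequence. Over the 38 members the distance from the other KO libraries correlated with coding GC content at rho = 0.892 (Pearson's r = 0.882), and over 11674 genes at rho = 0.807, as descriptions across genes that share their libraries. The 12 members with a coding GC content under 48% were all below the other KO libraries, with a median of -1.07, and included Ncl, Npm1, Nop58, Gnl3 and Wdr75. The 15 members over 55% were all above them, with a median of +0.86, and included Bop1, Tbl3, Ppan, Nle1 and Imp3. In the library labelled WT replicate 3 the same relation over the members was weak, at rho = 0.228. It was 0.286 in WT replicate 2. In WT replicate 1 it ran the other way, at -0.559 over the members and -0.365 over all genes.

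**Figure D3:**
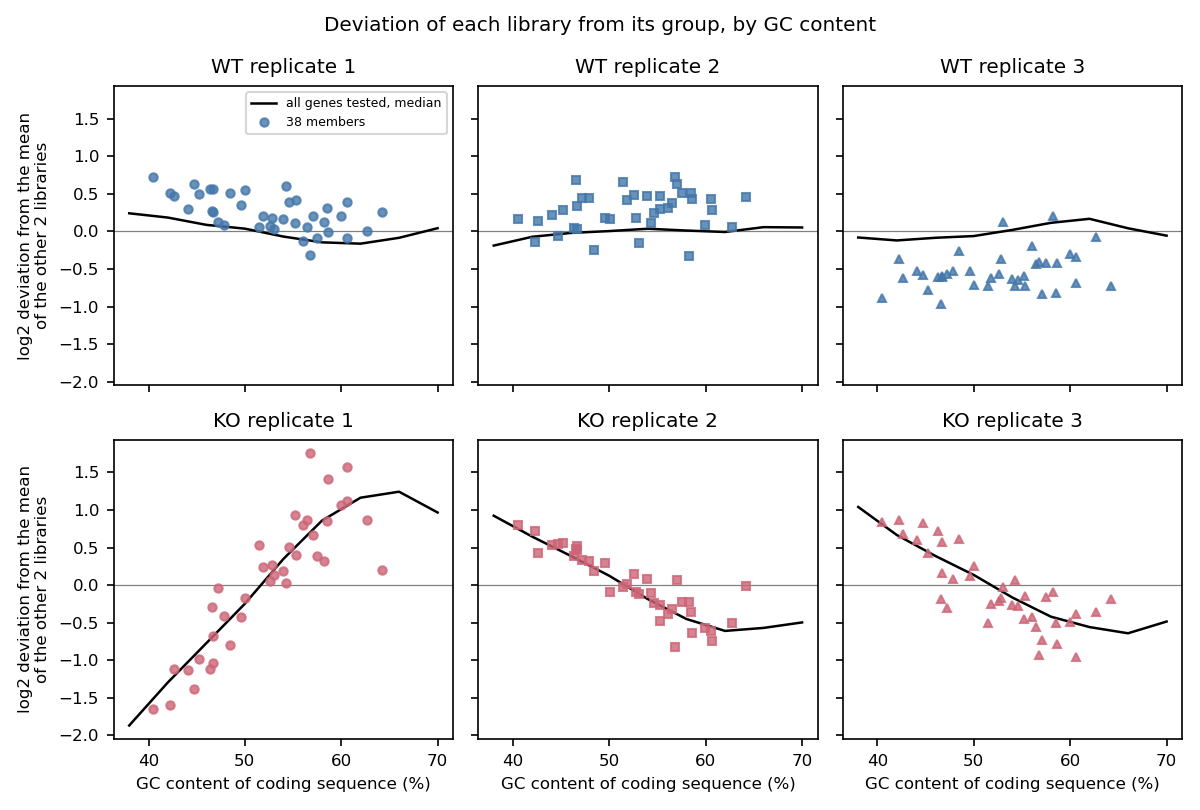
Distance of each of the 38 members (points) from the mean of the other libraries of its group, in log2 units, against the GC content of its coding sequence in percent, with 1 panel per library and the median of all genes tested as a line. In KO replicate 1 the points lie between -1.65 and 1.75 and are higher at higher GC content, as is the line, the other KO libraries mirror this since each is compared with it, and for the library labelled WT replicate 3 most points lie below 0 and below the line.

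The fold changes between the genotypes carried the same order. Members under 48% had a median log2 fold change of -0.19 and all genes in that range -0.24, and members over 55% had a median of +0.30 and all genes +0.33. Without KO replicate 1 these medians over the members were +0.07 and -0.18, and with a correction for GC content and length they were -0.02 and -0.04. The sign changed without KO replicate 1 in 20 of the 38 members. The alignment report gave KO replicate 1 a mismatch rate of 0.52%, against 0.32% to 0.43% in the other libraries, and 12.5% multiply mapped reads, against 13.6% to 15.4%. The bounds of 48% and 55% were chosen after the values were seen, and what set this library apart was not tested.

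With both libraries left out, 2 WT and 2 KO libraries remained. There 34 of the 38 members had log2 fold changes below 0, with a median of -0.18. The share below 0 and the median over all genes in this fit are not given here. The library labelled WT replicate 3, left out in this fit, was below both other WT libraries in 36 of the 38 members. Leaving it out raised the WT mean of those members, so a shift below 0 was built into the choice of libraries. At an unadjusted p under 0.05 there were 8 members (21.1%), all on the lower side, beside 14.0% of 11549 genes in either direction and 5.55% on the lower side. They were Tbl3 (-0.56), Wdr74 (-0.44), Nop16 (-0.43), Nip7 (-0.39), Fbl (-0.36), Rrp9 (-0.35), Rrp12 (-0.35) and Wdr12 (-0.31). None passed after adjustment in edgeR, with a lowest adjusted p of 0.224 for Nop16, where 80 genes in all were called (0.693%). This comparison leaves out 1 library of each group after their values were seen, and it rests on 2 libraries each. The 34 members below 0 and the 8 at an unadjusted p under 0.05 are therefore no support for a difference between the genotypes.

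Levels can be compared between members only per length, in the deposited FPKM values. Npm1 was the highest in both groups, at 4003 ± 668 FPKM in WT and 3208 ± 1451 FPKM in KO (mean ± SD, n = 3 each), and Ncl the second, at 551 ± 132 and 557 ± 220 FPKM. Nop56, Nop58, Ddx21 and Fbl followed in that order in both groups, and neighbours among these 4 differed by less than the larger of their SDs, apart from Nop58 and Ddx21 in WT. Myc was the seventh in WT, at 120 ± 16.1 FPKM, and the eighth in KO, at 108 ± 24.98 FPKM, after Mybbp1a. Nle1 was the lowest in both groups, at 8.50 ± 1.57 and 12.6 ± 9.98 FPKM, with Bysl and Tbl3 next to it.

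**Figure D4:**
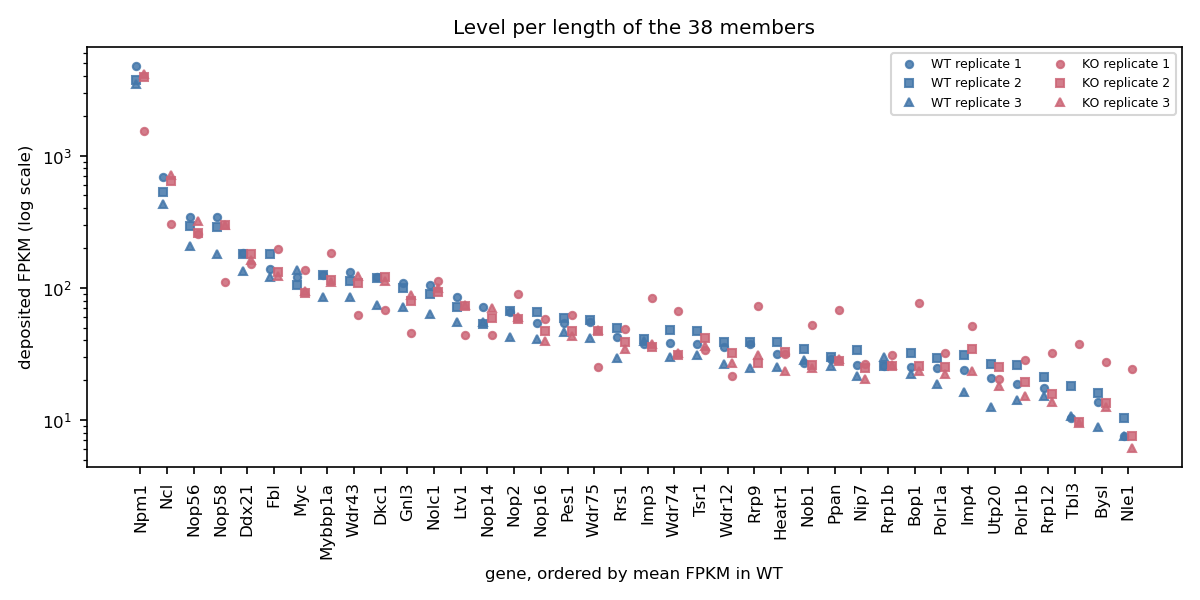
FPKM (log axis) of each member in each library, ordered by the WT mean, with WT and KO libraries in separate colours. Npm1 is the highest and Nle1 the lowest member in both groups, and the points of the groups overlap in each member.

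Several members carry snoRNA genes inside them, the RNAs that guide the snoRNPs. In GENCODE M21 this held for 8 of the 38 members (21.1%), against 1.84% of 11535 tested genes with an annotation. The hosts were Ncl, Nop56, Nop58, Dkc1, Gnl3, Ppan, Wdr43 and Tsr1. Their median log2 fold change was -0.09 and that of the other members +0.03. The 6 of 8 hosts below 0 were the 6 with a coding GC content under 48%, a range that held 12 of the 38 members. Without KO replicate 1 the direction turned, with 7 of 8 hosts above 0 and medians of +0.08 for the hosts and -0.09 for the other members.

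Further genes of the pathway were described from lists of their roles. Of 137 listed symbols 132 were in the count table, and all of those were tested. edgeR called 0 of the 132, with 2 at an unadjusted p under 0.05 (7.51% of all genes), and the groups did not overlap in 7. Of these 4 were higher in KO, where 7.48% of all genes were, and 3 were lower, where 8.18% of all genes were. The median log2 fold change was -0.07, with 56 genes above 0 and 76 below. By list, the medians were -0.08 for 38 small subunit factors, -0.10 for 45 large subunit factors, +0.05 for 10 snoRNP proteins and assembly factors, -0.13 for 13 genes of RNA polymerase I and its factors, and -0.07 for 15 Myc targets outside the nucleolus.

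**Figure D5:**
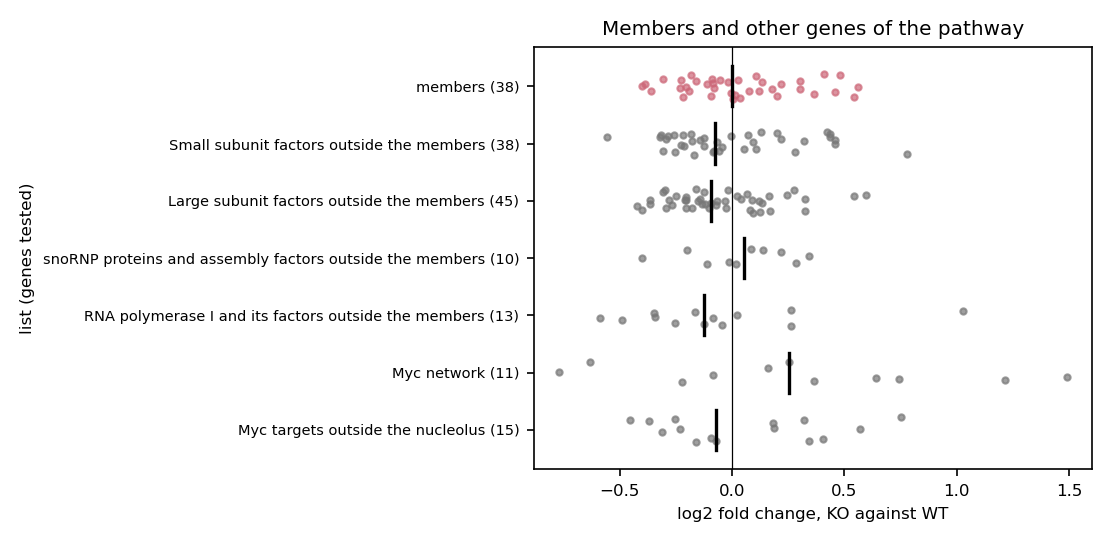
Log2 fold change in KO against WT of each gene in the member list and the 6 further lists, with points for genes, spread vertically for legibility, and black bars for the medians. The medians of the lists run from -0.13 to 0.25, and edgeR called no gene of any list.

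The Myc network list held relatives of Myc, Max and its partners, and the related Mlx and Mlxip. It had the highest median, +0.25 over 11 genes, and held both genes with an unadjusted edgeR p under 0.05. Mxd1, which pairs with Max and represses, stood at 33.03, 39.97 and 46.93 CPM in WT cells and 68.6, 59.3 and 59.0 CPM in KO cells. Every KO library lay above every WT library, with a log2 fold change of +0.64 (SE 0.23, edgeR adjusted p = 0.618), and +0.56 without KO replicate 1. Mxd3, a repressor of the same family, stood at 2.71, 3.57 and 2.80 CPM in WT cells and 15.3, 4.08 and 5.92 CPM in KO cells, a log2 fold change of +1.49 (SE 0.51, edgeR adjusted p = 0.592), or +0.72 without KO replicate 1. Mxi1, another partner of Max, stood at 48.1, 45.3 and 111 CPM in WT cells and 37.7, 34.6 and 47.8 CPM in KO cells, with a log2 fold change of -0.77 (SE 0.37, edgeR adjusted p = 0.675). The high Mxi1 value was that of the library labelled WT replicate 3, and without it the log2 fold change was -0.23. Mxd4 stood at +1.21 and, without KO replicate 1, at +0.16, while Mga stood at -0.22 and, without that library, at +0.12. Mycn, with only 8 to 112 counts in a library, stood at -0.63 (SE 0.81) and, without the library labelled WT replicate 3, at +0.88.

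In the other lists, Wdr36, a small subunit factor, stood at 227, 233 and 182 CPM in WT cells and 107, 172 and 157 CPM in KO cells. Its groups did not overlap, with a log2 fold change of -0.56 (SE 0.25, edgeR adjusted p = 0.663). Taf1b, a subunit of the selectivity factor that brings RNA polymerase I to its promoter, stood at 51.7, 46.0 and 48.8 CPM in WT cells and 20.2, 35.6 and 41.7 CPM in KO cells, again without overlap (log2 fold change -0.59, SE 0.30, edgeR adjusted p = 0.682), and its log2 fold change was -0.34 without KO replicate 1. Odc1, the first enzyme of polyamine synthesis and a classical Myc target, stood at 707, 682 and 471.5 CPM in WT cells and 749, 782 and 791 CPM in KO cells, with a log2 fold change of +0.32 (SE 0.24, edgeR adjusted p = 0.754), or +0.15 without the library labelled WT replicate 3. The other 2 genes whose groups did not overlap were Utp23 at -0.26 (-0.16 without KO replicate 1) and Coil at +0.28 on the log2 scale.

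Most of the further values, from the genes with the smallest p in each list, moved with 1 library, and none was called. Of the small subunit, Nol6 stood at +0.78 and, without KO replicate 1, at +0.14, Rrp7a at +0.42 and +0.08, Rrp36 at +0.46 and +0.13, and Utp14a at -0.31 and -0.14. Of the large subunit, Eif6 stood at +0.60 and, without KO replicate 1, at -0.22, Ddx54 at +0.54 and -0.09, Gtpbp4 at -0.40 and -0.10, Nsa2 at -0.42 and -0.09, and Rsl24d1 at -0.30 and -0.18. Of the snoRNP list, again with and without KO replicate 1, Tcof1 stood at +0.34 and +0.09, Nhp2 at +0.22 and +0.02, Nufip1 at -0.40 and -0.21, Naf1 at -0.20 and +0.02, and Shq1 at -0.11 and -0.36. Of RNA polymerase I, Taf1c went from +1.03 to -0.25 without it, Polr1d from -0.35 to -0.57 and Ttf1 from -0.25 to -0.16. Of the Myc targets, the spermidine synthase Srm went from +0.75 to -0.15, Nme1 from +0.57 to +0.17, Tfrc from -0.45 to -0.10, Slc7a5 from -0.37 to -0.79 and Slc3a2 from -0.31 to -0.58. Without the library labelled WT replicate 3, Ubtf went from +0.26 to +0.06, Cd3eap from +0.26 to +0.07, Ttf1 to -0.08 and Sbds of the large subunit from +0.32 to +0.15, and Nhp2 was at -0.01.

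Of the 5 Treg markers, Foxp3 had groups that did not overlap, with a log2 fold change of +1.68 (SE 0.25, edgeR adjusted p = 0.197), and so did Ikzf2 at +0.91. This held for 15.7% of all genes tested. The groups overlapped in Tnfrsf18 (+0.30), Il2ra (-0.09) and Ctla4 (-0.79). The sums of markers given here are CPM by library size alone, without TMM scaling. The 5 summed to 4942 to 8235 CPM in WT and 4968 to 8104 CPM in KO, with Il2ra the largest part in every library. Among markers of other cells, Cd8b1 was 1 of the 2 genes that edgeR called, and it was lower in KO. The CD8 markers Cd8a and Cd8b1 summed to 184 to 265 CPM in WT cells and 38.1 to 64.9 CPM in KO cells, and the T cell markers Cd3e and Cd4 to 473 to 543 and 800.1 to 873 CPM. NK cell markers summed to 1.66 to 7.44 CPM in WT cells and 5.06 to 16.4 CPM in KO cells, macrophage and monocyte markers to 1.89 to 5.99 and 10.4 to 16.6 CPM, with Csf1r and Lyz2 at 0 counts in all libraries, and B cell markers to 2.78 to 4.57 and 1.28 to 7.22 CPM. Cd68 and Fcer1g, the only 2 macrophage and monocyte markers that passed the filter, made up most of the sums for those cells. Of 11 genes of cycling cells, which use much of the pathway, 5 had log2 fold changes above 0 and 6 below, with a median of -0.04, and edgeR called 0. The part of cell makeup in the members' values was not tested, and in bulk RNA fewer cells of a kind and less RNA per cell cannot be told apart.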

How the data were processed

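Raw whole-number counts of each gene symbol, not normalized, were deposited by the authors for the 6 libraries. They deposited a second table of values taken as FPKM, normalized by length and depth, whose unit was inferred from the table's title and values. The alignment report that the authors deposited holds other statistics, such as the percent of uniquely mapped reads. The aligner was STAR 2.4.2a (per the file headers) and the build mm9 (per the submitters' processing notes). Libraries were stranded mRNA read as 75-base single ends, per the series' design text. For the counting, the tool, strand handling and annotation were not given in the sources used here. Entries with a date in place of a symbol (26, or 0.271% of counts) were not removed, so any that passed the filter are among the genes tested. Library sizes in the edgeR test were summed over the genes that passed the filter.

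The main test was edgeR's quasi-likelihood test without covariates (version 4.0.16, R 4.3.3), after TMM scaling and filterByExpr with its default minimum count of 10. The p-values of all 11772 genes were adjusted by Benjamini-Hochberg, with a threshold of 0.05. All adjusted p are from this test unless another tool is named. Intervals use its standard errors. The steps were tested on counts simulated gene by gene with known changes. Those counts had no relation to GC content and no library that stood apart, so that test does not cover these features of the data. Alternatives were other scalings and filters, DESeq2 1.42.0, limma 3.58.1 (voom, and log2 FPKM with a pseudocount of 1 or 0.1), blocking on the replicate number, leaving out each library, and 2 against 2 libraries. A correction for GC content and length was added after seeing the data. Coding GC content, snoRNA hosts and exon overlaps come from GENCODE M21, which is of another build than the counts.

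Every member was named. Values in every library were given for Myc, Ncl, Npm1, Fbl, Polr1a, Polr1b and the 6 members with the smallest p in each direction, and up to 3 genes a direction were named from each pathway list. Nop56, Nop58, Dkc1, Tbl3 and Rrp1b were given in full after their values were seen. The members, lists and the 2 against 2 comparison were chosen with earlier results of these data known.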

Additional observations from a re-analysis of the deposited data

How the results depend on the processing

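No member was called under any of the alternatives run, and neither was any of the 132 further pathway genes. The number of all genes called by edgeR, 2, depended on the setting. It was 6 with no filter, 1 with the replicate number as a block, 80 with 2 against 2 libraries, 6 with the correction for GC content and length, and 0 to 3 with 1 library left out, the 3 without KO replicate 1 and 0 without any other (509 to 1272 at an unadjusted p under 0.05). DESeq2's Wald test called 121 and limma voom 1. On log2(FPKM + 1) with no filter limma called 0 (1040 at an unadjusted p under 0.05). The cause of these shifts was not tested.

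The median of the members ran from -0.19 without the library labelled WT replicate 3 to 0.07, and members changed sign in 20 of 38 cases without KO replicate 1, 19 with 2 against 2 libraries, 14 with the GC and length correction and 1 to 9 otherwise. Myc stayed below 0 throughout, from -0.42 to -0.15. Same-numbered libraries had deviations that correlated at -0.36, 0.15 and 0.14, and differently numbered ones at -0.38 to 0.32. With 3 libraries in each group, these values cannot decide whether same-numbered libraries were paired. With the replicate block the median of the members was 0.01 and Myc stood at -0.22.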
